A study of Homo sapiens with 2 samples.

Results

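The regions described here are the PRDM1 peaks of human chromosome 19 in U266 cells. They were taken by chromosome name from the authors' complete peak list, which held 9669 peaks, and 354 of these lay on chromosome 19. They were then divided along GRCh37 into 2 intervals known for clusters of zinc finger genes and the rest of the chromosome. The intervals ran from 19.8 to 24.5 Mb, in band 19p12, and from 52 to 58.9 Mb, in band 19q13.4. They held 50 peaks (18 in 19p12 and 32 in 19q13.4), and the rest held 304. A peak was placed by its summit.

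U266 is an established human multiple myeloma line, a tumour of plasma cells. Both libraries are labelled U266, although the submitters' texts also speak of a second myeloma line, NCI-H929, which was not analysed here. PRDM1 binding was mapped by ChIP-seq, the sequencing of DNA recovered with an antibody to a protein (here C14A4, a rabbit monoclonal), in 1 library, and 1 library of input DNA, which saw no antibody, served as its control. Both were untreated as far as the labels say, and neither had a replicate, so intervals and p-values describe counting within 1 peak list, treat peaks as independent, and do not describe the spread between cultures. After removal of duplicates the PRDM1 library held 7854466 tags and the input 8556458, which is 2.91 and 3.17 tags per kb of effective genome.

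PRDM1, known too as BLIMP-1, represses the B cell programme as plasma cells form. Chromosome 19 is known as the most gene-dense human chromosome and as the main home of the KRAB zinc finger genes, a large family of DNA-binding repressors that arose by tandem duplication and of which many silence transposable elements through the corepressor TRIM28. The clusters of these genes are known to carry broad repressive chromatin in many cell types. PRDM1 binds DNA through zinc fingers of the same C2H2 kind.

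The gene content given for the chromosome was checked in the RefSeq gene table (GRCh38), with no coordinates carried over. Chromosome 19 held 1451 protein-coding genes, or 24.5 per Mb, the highest of the 24 chromosomes, against 6.12 per Mb over the other 23. Of these genes 251 (17.3%) had a ZNF or ZFP symbol, compared with 1.5% of the genes of the other chromosomes, and they made up 47.4% of all such genes. In gene order, 185 of them stood in 17 unbroken runs of at least 5. The longest run held 27 genes, from ZNF737 to ZNF681, and further runs held 24 genes from ZNF627 to ZNF791, 24 from ZNF565 to ZNF793 and 20 from ZNF283 to ZNF180. Since no annotation of GRCh37 was used here, no peak was assigned to a gene. In gene order the longest run began at position 619. The run from ZNF627 began before it, at 382, and those from ZNF565 and ZNF283 after it, at 749 and 943. Genes were not counted inside the 2 intervals or in the rest, and no run was placed by coordinates. The rest also holds zinc finger clusters, so long runs can lie there.

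Peaks were sparser in the zinc finger intervals than on the rest of the chromosome. The intervals held 4.31 peaks per Mb (95% Poisson interval 3.2 to 5.68), whereas the rest held 6.4 (5.7 to 7.16). The ratio of the densities was 0.674 (95% exact interval 0.489 to 0.911, exact binomial p = 0.0089, adjusted p = 0.0178 over 4 density comparisons). Even so, the density in the intervals was above the 3.07 peaks per Mb (3.01 to 3.13) of the other chromosomes. The 2 intervals had 3.83 peaks per Mb in 19p12 (2.27 to 6.05) and 4.64 in 19q13.4 (3.17 to 6.55), a ratio of 0.826 (0.436 to 1.52, exact p = 0.567, adjusted p = 0.567) that leaves a difference in either direction possible. Against the rest, 19p12 alone gave a ratio of 0.599 (0.35 to 0.963, exact p = 0.0317), and 19q13.4 alone gave 0.725 (0.487 to 1.05, exact p = 0.0851), which missed the threshold. With peaks of at least 25 tags, 16 in the intervals and 107 in the rest, the ratio was 0.613 (0.338 to 1.04) and the test was not passed (exact p = 0.069). With the centromere gap of the assembly, about 3.1 Mb, left out of the rest, the ratio was 0.63 (0.457 to 0.852, exact p = 0.00198). Alignable length was not known in the intervals or in the rest. The rest was not free of zinc finger clusters. With further clusters of the rest, whose bounds were set by hand, moved to the intervals, 73 peaks against 281, the ratio was 0.688 (0.525 to 0.894, exact p = 0.00415).

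**Figure D1:**
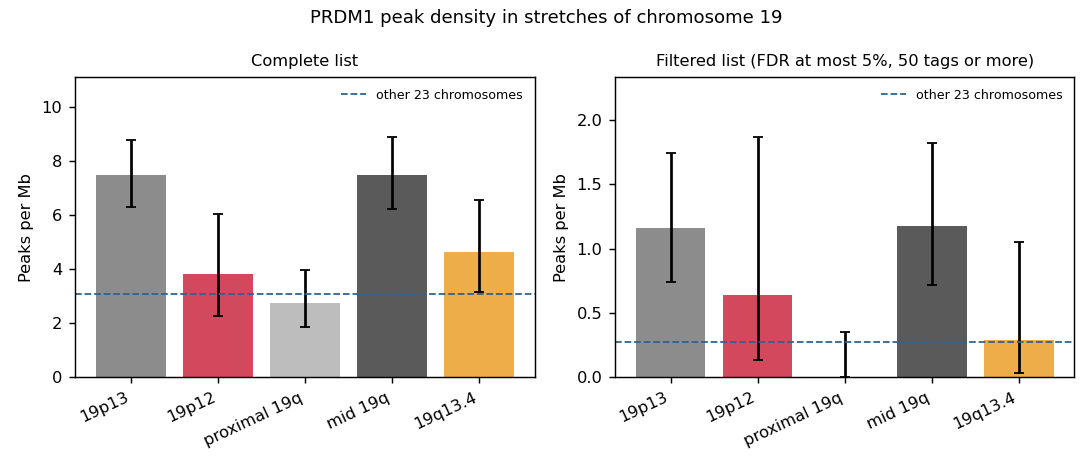
Peaks per Mb in 5 stretches of chromosome 19 in the complete list (left) and in the filtered list (right), with exact 95% Poisson intervals as bars, and the density of the other chromosomes as a dashed line. 19p12 and 19q13.4 are the zinc finger intervals, at 3.83 and 4.64 peaks per Mb in the complete list, against 7.47 in both 19p13 and the mid 19q stretch.

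The rest of the chromosome was itself uneven. In 19p13, from the chromosome start to 19.8 Mb, there were 148 peaks or 7.47 per Mb (6.32 to 8.78), and from 35 to 52 Mb, called mid 19q here, there were 127 peaks or 7.47 per Mb (6.23 to 8.89). Between them and beyond 19p12 lay the stretch from 24.5 to 35 Mb, called proximal 19q, with 29 peaks or 2.76 per Mb (1.85 to 3.97). About 3.1 Mb of it is the centromere gap of the assembly, and over the other 7.4 Mb the density was 3.92 (2.62 to 5.63). With the gap left out, 19p12 was close to proximal 19q, and 19q13.4 lay between it and the dense stretches. The edge at 35 Mb was chosen after the peaks were seen. Leaving this stretch out of the rest gave a ratio of 0.58 (0.421 to 0.787, exact p = 0.000252) for the intervals. As the stretch was sparse and its edge was chosen from the peaks, this could only lower the ratio. No conclusion is drawn from it. Windows of 1 Mb, assigned by their midpoint, held from 0 to 14 peaks in 19p13 with a median of 7, from 3 to 12 in mid 19q with a median of 8, from 0 to 6 in 19p12 with a median of 4, from 2 to 9 in 19q13.4 with a median of 4 and from 0 to 7 in proximal 19q with a median of 3. The ranges overlapped, and the fullest window of 19q13.4 exceeded the medians of both dense stretches, while that of 19p12 did not.

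The longest distance without a peak, 3.56 Mb, ran from 24303290 to 27867440, across the upper edge of the 19p12 interval and the centromere gap. The next were 1.36 Mb from 14751292 to 16112399, in 19p13, and 1.24 Mb from 32167068 to 33405544, in proximal 19q. A distance of 1.16 Mb from 19886827 to 21050299, inside 19p12, followed these. In 19q13.4 the longest was 0.996 Mb, from 52144807 to 53140854. The last peak of the chromosome ended at 58299585, 0.829 Mb before its end. The last peak before 19p12 lay at 19591330 to 19592169 with 34 tags and the first within it at 19886333 to 19886827 with 9. At the lower edge of 19q13.4 the neighbours held 19 tags (51944881 to 51945452, outside) and 12 tags (52029113 to 52029712, inside).

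The authors also deposited a filtered list that kept peaks of 50 tags or more whose false discovery rate (FDR) was 5% or less, tags being sequenced fragments counted in the peak. The FDR is the caller's own, from swapping PRDM1 and input. This list took 9.17% of all peaks. It held 48 peaks of chromosome 19 (13.6% of 354, 95% Wilson interval 10.4 to 17.5), and every peak of the chromosome with 50 tags or more was among them. Of these, 23 lay in 19p13, 20 in mid 19q, 3 in 19p12, 2 in 19q13.4 and none in proximal 19q. The density was 0.431 per Mb in the zinc finger intervals (0.14 to 1.01) and 0.905 in the rest (0.655 to 1.22), a ratio of 0.476 whose interval of 0.147 to 1.2 held 1 (exact p = 0.144, adjusted p = 0.192). Without proximal 19q in the rest, the ratio was 0.371 (0.115 to 0.935, exact p = 0.0272). That stretch held no filtered peak and its edge was chosen after the peaks were seen. Leaving it out could only lower the ratio, so no conclusion is drawn from the p-value.

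No filtered peak lay between 24185161 and 35157106, a distance of 11 Mb that held 32 weaker peaks. In proximal 19q 0 of 29 peaks were filtered, which by the limit of 3 counts for a count of 0 allows a share of up to 10.3%. Its strongest peak by score, at 30207181 to 30208245, held 25 tags, 8 times the number expected from the input. The most tags there, 31, lay at 31776305 to 31777528. In 19p12 3 of 18 peaks were filtered. With 29 and 18 peaks these shares were loosely bounded, at up to 11.7% and from 5.84 to 39.2% by the Wilson interval, and the bounds overlapped.

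The share of peaks at an FDR of at most 5%, 43.5% over the whole list, did not separate the zinc finger intervals from the rest. It was 24 of 50 (48%, 34.8 to 61.5) in the intervals and 152 of 304 (50%, 44.4 to 55.6) in the rest. The difference was -2 percentage points, with a Newcombe 95% interval from -16.3 to 12.6. For the whole chromosome the share was 49.7% (176 of 354), 6.44 points above the 43.3% of the other chromosomes (1.17 to 11.7). It ranked 4 of the 24 chromosomes, below Y (71.4%), X (61.1%) and 17 (50.9%). The share of filtered peaks on chromosome 19, 13.6%, had the same rank, below 21 (17.7%), 17 (15.1%) and Y (14.3%). Fewer peaks per Mb were thus called in the zinc finger intervals, while the part of them that passed the FDR limit was close to that of the rest, within wide bounds.

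Tags per peak had a median of 14.5 in the intervals, with an interquartile range of 12 to 27.8, and 18 in the rest (12 to 33). The other chromosomes had a median of 15 (11 to 25). Within the intervals the median was 17 in 19p12 and 14 in 19q13.4. Peaks of 9 to 11 tags, the smallest class, made up 22% of the interval peaks, 15.1% of the rest and 25.9% of the other chromosomes. Peaks of 25 tags or more made up 32% (20.8 to 45.8), 35.2% (30 to 40.7) and 26% (25.1 to 26.9). No interval peak reached 100 tags, where the rest had 9 such peaks. With 0 of 50 a share of up to 6% is allowed, and the share in the rest was 2.96%.

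**Figure D2:**
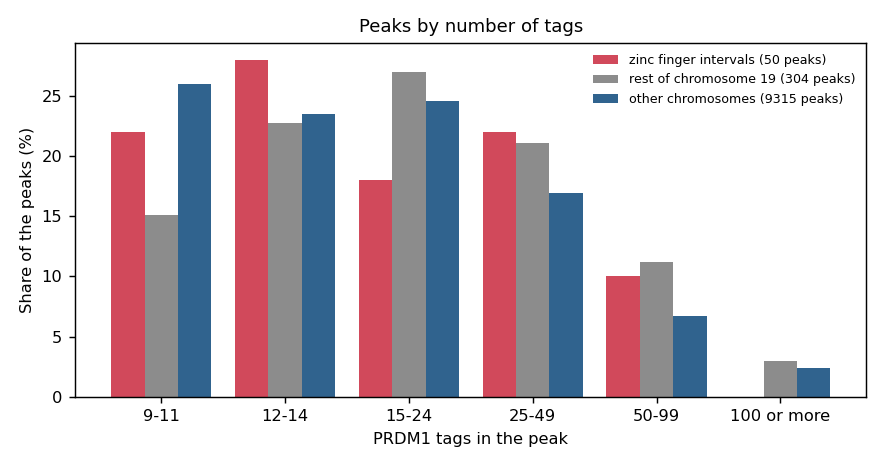
Share of peaks (%) in 6 classes of tags per peak, for the 50 peaks of the zinc finger intervals, the 304 of the rest of chromosome 19 and the 9315 of the other chromosomes. The class of 9 to 11 tags is 22% of the interval peaks and 15.1% of the rest, and the class of 100 tags or more is empty in the intervals.

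The share passing the FDR limit was also set out by tags per peak. At 9 to 11 tags 1 of 57 peaks of chromosome 19 passed (1.75%, 0.31 to 9.29), the one at 54105150 to 54105436, against 0.414% on the other chromosomes (0.225 to 0.76). At 12 to 14 tags 15.7% of its peaks passed (9.39 to 25) against 16.4% elsewhere (14.9 to 18), at 15 to 24 tags 52.7% (42.6 to 62.7) against 59.2% (57.1 to 61.2), and at 25 to 49 tags 88% (78.7 to 93.6) against 93.3% (92 to 94.5). From 50 to 99 tags it was 100 against 98.7%, and at 100 tags or more 100 against 99.1%. Chromosome 19 was thus lower in the 3 classes from 12 to 49 tags, where the intervals overlapped. It was higher in the smallest class, which rests on 1 peak, and from 50 tags up, where nearly all peaks passed everywhere. Chromosome 19 had more of its peaks in the classes of 25 to 49 tags (21.2 against 16.9%) and 50 to 99 tags (11 against 6.74%). These are shares of 1 list with no test.

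The input background is the number of input tags that the peak caller set against each peak, recovered here from the deposited score. It is given per kb, and the genome mean is 3.17. The peak caller takes at least the genome mean, and 1 peak of the chromosome, at 54105150 to 54105436 in 19q13.4, was recovered below it, at 2.04. Its median was 4 input tags per kb in the intervals (interquartile range 3.17 to 5) and 4.34 in the rest (3.6 to 5.45). It was highest in 19p13, with a median of 5, and lower in 19p12 (4.77), mid 19q (4), 19q13.4 (3.8) and proximal 19q (3.7). Peaks at the genome mean, within 2% of it, made up 30% of the interval peaks (19.1 to 43.8) and 18.1% of the rest (14.2 to 22.8). The 2 intervals lay on either side of the rest, at 16.7% in 19p12 and 37.5% in 19q13.4. The share was 10.1% in 19p13, 24.4% in mid 19q and 31% in proximal 19q, against 31.7% on the other chromosomes. The part of the input background in the density difference was not tested, and the background is known only where a peak was called.

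Measured against that background, the median peak of the complete list had a similar ratio in the intervals and elsewhere. Tags over expected, the scaled tag count divided by the tags expected from the input, had a median of 5.72 in the intervals (interquartile range 5.11 to 6.62) and 5.54 in the rest (4.61 to 7.06), a difference of 0.175 with no test. The other chromosomes also had 5.54. By stretch, the median was 5.25 in 19p13, 5.36 in 19p12, 5.52 in proximal 19q, 5.85 in mid 19q and 5.99 in 19q13.4. Only peaks that passed the caller's p cutoff are in the list, and for peaks of few tags the cutoff demands a high ratio. Similar medians can thus follow from the cutoff alone, and no conclusion on equal strength is drawn from them. The upper ends differed more than the medians did. Within peaks of at least 25 tags the median was 6.18 in the intervals and 7.83 in the rest, and at an FDR of at most 5% it was 6.18 and 7.04. The 5 filtered peaks of the intervals had a median of 7.83 and ran from 4.96 to 18.5. The filtered peaks of the rest had medians of 9.49 in 19p13 (23 peaks) and 11.9 in mid 19q (20 peaks). The sign of the difference thus depended on which peaks were counted. The median width was 700 bp in the intervals (601 to 948) and 792 bp in the rest (627 to 1036).

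**Figure D3:**
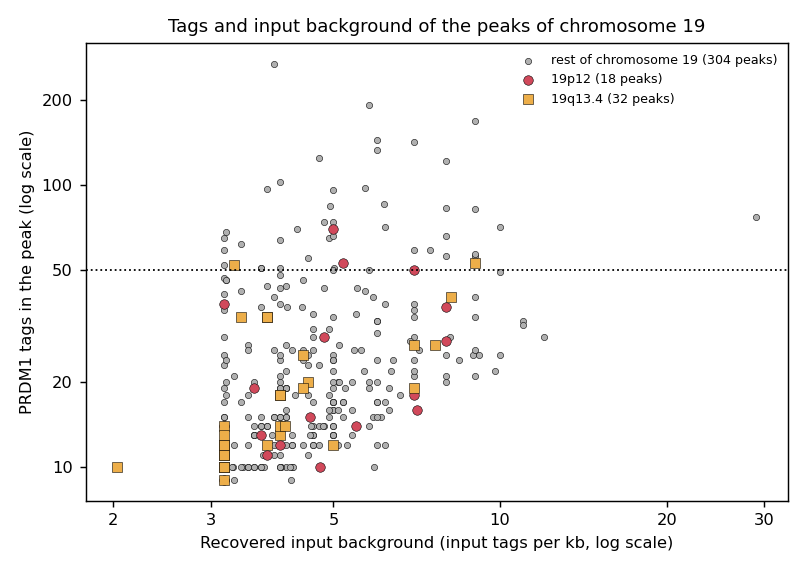
PRDM1 tags against recovered input background (input tags per kb) for the 354 peaks of chromosome 19, both axes logarithmic, 1 point a peak, with the minimum of 50 tags as a dotted line. The 3 peaks of 19p12 and the 2 of 19q13.4 at or above the line hold 50 to 70 tags, while peaks of the rest reach 270.

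The strongest interval peak by score lay in 19q13.4, at 54010981 to 54011899. It held 52 tags over 919 bp where the input predicted 3.03 scaled tags, a ratio of 18.5 (95% Poisson interval 13.9 to 24.5), and the authors' fold at the summit was 50. The other filtered peak of 19q13.4, at 55040043 to 55041320, held about as many tags, 53, but on an input background of 9 tags per kb, and its ratio was 4.96 (3.76 to 6.57). These 2 intervals of the ratio did not overlap, but they leave out the counting error of the input. Below the 50-tag minimum, 57874200 to 57875059 held 40 tags at 6.14 times expected. The peaks at 53140854 to 53142046, 56164728 to 56165887 and 58162297 to 58163503 held 34 tags each, at 9.12, 8.39 and 8.07 times. All these had an FDR under 1%, the highest being 0.14%.

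Both filtered peaks of 19q13.4 lay between 54 and 55.6 Mb, a stretch set here by hand to take in the leukocyte receptor genes. These encode immunoglobulin-like receptors of immune cells. The edges of the stretch were not checked against an annotation. It may also hold other genes, zinc finger genes among them. The peak at 54010981 to 54011899 lay just inside the lower edge, so the split of filtered peaks depended on where that edge was set. Neither peak was assigned to a gene. This stretch held 12 peaks, 7.5 per Mb (3.87 to 13.1), and 2 of the 12 were filtered. The remaining 5.3 Mb of 19q13.4 held 20 peaks, 3.77 per Mb (2.3 to 5.83), and 0 filtered. The Poisson intervals of the 2 densities overlapped. With the stretch left out, the ratio of the zinc finger intervals to the rest was 0.594 (0.412 to 0.834, exact p = 0.00164).

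In 19p12 the highest score belonged to the peak at 21786428 to 21788155, with 70 tags at 8.8 times expected (6.88 to 11.2). It was the widest in the intervals, at 1728 bp. The other 2 filtered peaks of 19p12 lay side by side, at 24178284 to 24179682 with 53 tags (7.83 times) and at 24183922 to 24185161 with 50 tags (6.22 times). With 2 weaker neighbours at 24174862 to 24175788 (19 tags) and 24175807 to 24176513 (16 tags, FDR 43.5%), they formed a run of 4 peaks within 10.3 kb that held 138 tags. It was the only run of 4 on chromosome 19 with gaps of at most 10 kb, and 5 runs of 3 lay in the rest. Counting such runs once left 4 filtered peaks in the intervals and a ratio of 0.381 (0.0994 to 1.05, exact p = 0.0643) for the filtered list. The unfiltered peak at 22017617 to 22018729 held 38 tags at the genome-mean background and reached 11.6 times expected (8.31 to 16.1), above the ratios of the 3 filtered peaks of 19p12. Its interval overlapped those of the first 2 and lay just above that of the third (4.66 to 8.27). With the counting error of the input left out of these intervals, that last separation is not established.

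Close neighbours were about as frequent on chromosome 19 as elsewhere: 61 of 354 peaks (17.2%, 13.7 to 21.5) had another peak within 10 kb, as had 16.4% (15.7 to 17.2) on the other chromosomes. In 19p12 it was 6 of 18 peaks (33.3%, 16.3 to 56.2), of which 4 were the run at 24174862 to 24185161. In 19q13.4 it was 2 of 32 (6.25%, 1.73 to 20.2). In the rest it was 17.4% (13.6 to 22.1).

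By score and by tags, the most strongly occupied sites of the chromosome lay outside the intervals. By tags over expected the highest ratios also lay outside the intervals, in mid 19q, from 18.7 to 24.7 times. The interval peak at 54010981 to 54011899 followed at 18.5 times. Its ratio was above that of every peak of 19p13, where the highest was 14.95 (12.7 to 17.7), but the Poisson intervals of these 2 peaks overlapped. The peak at 40046984 to 40050577, in mid 19q, had the highest score and the most tags, 270 (239 to 304) over 3594 bp, at 21 times expected (18.6 to 23.6), and ranked ninth by score in the whole list. The peak at 13103803 to 13106411, in 19p13, followed with 192 tags at 13.8 times (11.9 to 15.9). A peak of 43 tags began 384 bp beyond it. The peak at 8333588 to 8335544 held 169 tags, but on a background of 9 input tags per kb, and reached 10.4 times (8.94 to 12.2). In contrast, 50220227 to 50221568 held 103 tags on 4 input tags per kb and reached 20.9 times (17.1 to 25.4), with the highest fold at the summit on the chromosome, 87.5. The peak at 42633115 to 42634662, with 125 tags, reached 18.7 times (15.6 to 22.3). More tags did not mean a higher ratio among these sites.

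The other 5 of the 10 highest-scoring peaks all lay in 19p13. They were at 17633112 to 17634861 (145 tags), 10277734 to 10279542 (142 tags), 16437507 to 16440035 (133 tags), 4471471 to 4472639 (122 tags) and 1129623 to 1131622 (97 tags), at 9.49 to 15 times expected. Of the 10, 7 lay in 19p13 and 3 in mid 19q.

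Filtered peaks of chromosome 19 resembled those of the other chromosomes in their middle values. Their median ratio was 10.4 (interquartile range 7.59 to 13.7), as elsewhere (10.4, 6.96 to 14.6), with 67 against 73 tags, a width of 1444 against 1540 bp and a background of 5 input tags per kb in both. The highest ratio was 21 on chromosome 19 and 49.6 elsewhere. In 19p13 the 23 filtered peaks had a median ratio of 9.49 and none above 15, whereas the 20 of mid 19q had a median of 11.9 and reached 21. Their median backgrounds were 5.8 and 4.75 input tags per kb. These values were compared without a test.

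**Figure D4:**
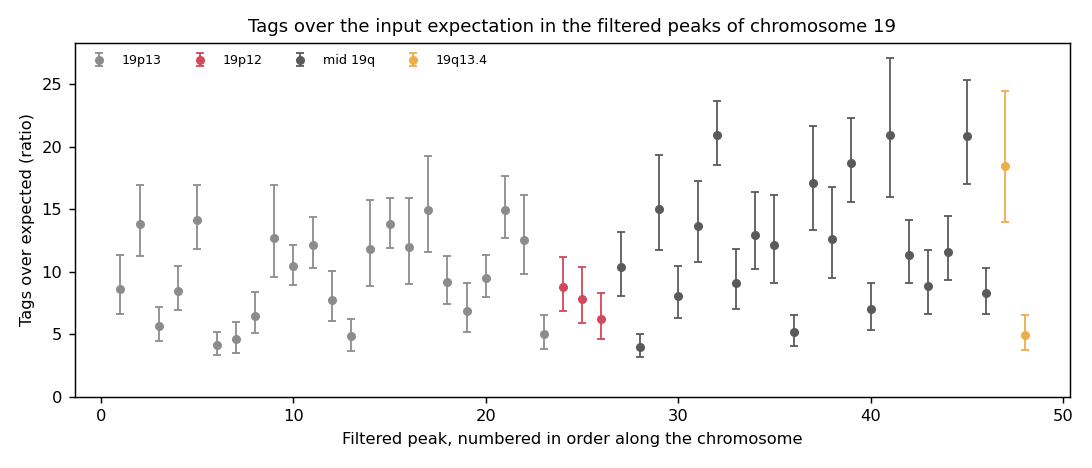
Tags over expected in the 48 filtered peaks of chromosome 19, numbered in their order along the chromosome and coloured by stretch, with 95% Poisson intervals on the tags as bars. The 23 peaks of 19p13 stay at or below 15, and the 5 peaks of the zinc finger intervals run from 4.96 to 18.5.

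Filtered peaks were most crowded between 41 and 42 Mb, where 4 of the 11 peaks of this 1 Mb window were filtered. At 41282504 to 41283791 there were 74 tags (12.9 times expected) and at 41570596 to 41571726 there were 51 (12.2 times). The peaks at 41803183 to 41804664 and 41815802 to 41816836 held 71 and 70 tags, 11.1 kb apart. Their backgrounds were 10 and 4.3 input tags per kb and their widths 1482 and 1035 bp, so 14.8 and 4.45 scaled tags were expected. Their ratios were 5.2 and 17.1. The 95% intervals of these ratios did not overlap, but they leave out the counting error of the input. The other 7 peaks of the window held 10 to 33 tags: 33 tags at 41962890 to 41964365, 24 at 41102493 to 41103439, 13 at 41128243 to 41128974, 11 at 41804696 to 41805303, and 10 each at 41019384 to 41019862, 41464945 to 41465417 and 41986668 to 41987209.

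The peak at 36066351 to 36067073, in mid 19q, had the highest input background of the chromosome, 29.1 tags per kb or 9.17 times the genome mean. It held 77 tags over 723 bp at 3.95 times expected (3.15 to 4.99), the lowest ratio among the 48 filtered peaks, and passed the FDR limit at 0.08%. The next highest backgrounds were 12 input tags per kb at 6802863 to 6803630, 11 at 6717127 to 6718129 and 1716982 to 1718065, and 10 at several peaks, among them 3368779 to 3371116. That last peak held 49 tags at 2.27 times expected, the lowest ratio on the chromosome, with an FDR of 8.08%. It was the peak just under the 50-tag minimum.

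Chromosome 19 had the highest peak density of the 24 chromosomes, 5.99 per Mb (5.38 to 6.64) against 3.07 on the others, a ratio of 1.95 (1.75 to 2.17, exact binomial p = 4.34e-29, adjusted p = 1.74e-28). It held 1.91% of the length, 3.66% of the peaks and 5.41% of the filtered peaks, but 7.24% of the protein-coding genes. Set against genes, the order turned: chromosome 19 had 24.4 peaks per 100 protein-coding genes, the third lowest after Y (11.1) and X (12.7), where the others together had 50.1. In the filtered list it had 3.31 per 100 genes against 4.51. Over the 24 chromosomes, genes per Mb and peaks per Mb had Pearson's r = 0.704, and 0.599 over the 23 without chromosome 19. For the filtered list it was 0.76 and 0.639. The chromosomes share 1 pair of libraries and differ in input background, which had a median of 1.33 times the genome mean on chromosome 19, the fourth highest, so these are descriptions. Gene counts came from GRCh38 and lengths from GRCh37.

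**Figure D5:**
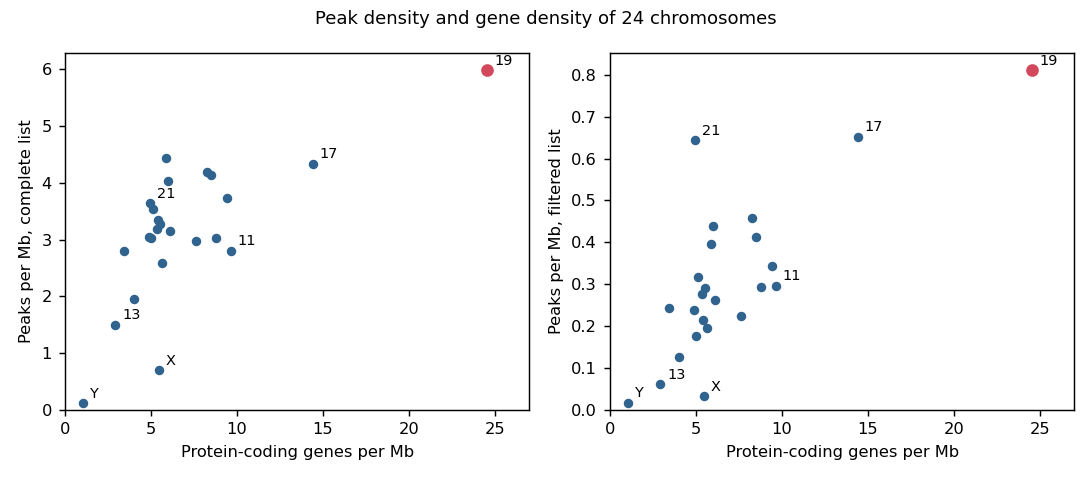
Peaks per Mb in the complete list (left) and the filtered list (right) against protein-coding genes per Mb, 1 point for each of 24 chromosomes, with chromosome 19 in red. Chromosome 19 lies at 24.5 genes and 5.99 peaks per Mb, the highest on both axes.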

How the data were processed

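Per the submitters' processing notes, the tools were Bowtie 0.12.7, CASAVA 1.8.2 and MACS 1.4. Peaks came from MACS 1.4.1 at a p cutoff of 1e-05, per the file headers. Tag counts per peak, scores (a multiple of −log10 p), fold ratios at the summit and FDR percent are the authors' deposited values. How reads that align to several places were handled, and the genome build, were not given in the sources used here. All peaks lay within the chromosomes of GRCh37, while 53 passed an end in GRCh38, with chromosome lengths typed from general knowledge, so coordinates are GRCh37, 1-based and as deposited.

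Expected tags were solved from the score: tags were scaled by 1.09, the ratio of input to PRDM1 tags, and rounded down, and the Poisson mean that gives the score was taken. Multiplied by the fold and by 200 bp over the peak width, this mean gave whole summit heights within 0.06 for 98.7% of 9667 peaks. On chromosome 19, 1 peak was recovered below the genome mean and was kept. Off that mean, 243 of 284 backgrounds were whole input tags per 10 kb within 0.1 (an even spread gives 20%). Intervals on tags, and on tags over expected, are exact 95% Poisson intervals and cover only the counting error of the PRDM1 tags. The expected tags were held fixed. Intervals of the ratio thus leave out the counting error of the input and are too narrow.

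Densities were compared by the binomial test, exact and two-sided, with total GRCh37 length as exposure, at a threshold of 0.05, with Benjamini-Hochberg adjustment over 4 comparisons. Alignable length was not known. Shares have Wilson intervals and their differences Newcombe intervals. Medians were not tested. Computation used Python 3.11.15, scipy 1.17.1 and statsmodels 0.14.6, and the test and the recovery were tested on simulated data.

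The peaks and intervals were chosen with earlier results of these data known. Named peaks are the 10 highest scores, the 5 with most tags, the filtered or highest-scoring peaks of each interval, the densest window, the highest backgrounds, the widest gaps, the peaks at the edges, and the runs. The edges, the runs, the strongest peaks of proximal 19q, the peak of 43 tags and the peak of lowest ratio were added after their values were seen. Distances to genes and counts of gene lists were not made.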

Additional observations from a re-analysis of the deposited data

How the results depend on the processing

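The ratio of peak density between the zinc finger intervals and the rest, 0.674, stayed below 1 under 12 alternatives, from 0.58 to 0.725. It passed the unadjusted exact test under 10 of them. Among the 10 is the one that leaves 24.5 to 35 Mb out of the rest, which could only lower the ratio. The 2 that missed the threshold were peaks of at least 25 tags (0.613) and 19q13.4 alone (0.725). The cause was not tested. The ratio in the filtered list, 0.476, missed the threshold under 10 alternatives. Under the one that leaves 24.5 to 35 Mb out of the rest, it passed at 0.371. That choice was made after seeing the data and could only lower the ratio, so the pass carries no weight. With filtered peaks of at least 100 tags it was 0, from 0 peaks against 9. The difference in the median of tags over expected, 0.175, became -0.856 among peaks with an FDR of at most 5% and -1.65 among peaks of at least 25 tags; the cause was not tested. Its other 9 values lay within 0.364 of it, the limit used in place of a replicate spread, but with 19p12 alone the sign was also turned (-0.183). The ratio between 19p12 and 19q13.4 missed the threshold under all 7 alternatives, at 0.638 to 1.14. The ratio of chromosome 19 to the others was 1.79 to 2.94 under 6, past the test in each. The differences in the share at an FDR of at most 5% stayed within their reported intervals under 11 alternatives on the chromosome and 3 between chromosomes. No paired analysis was possible because neither kind of library had a second one. The share of peaks near transcription starts was not run, since no GRCh37 annotation was used. The intervals held 50 peaks, 5 of them filtered, and counting error sets the widths of the intervals given.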

Other observations

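The highest ratio of tags over expected on chromosome 19 was not in the filtered list. The peak at 50093824 to 50094456 held 46 tags over 633 bp where 2.03 scaled tags were expected, a ratio of 24.7 (95% Poisson interval 18.1 to 33) with an FDR of 0%, and it ranked 32nd by that ratio in the whole list. It fell 4 tags short of the minimum. The peak at 47103937 to 47104900, with 59 tags at 20.9 times expected (16 to 27.1) on a background at the genome mean, was the third highest. On chromosome 19, 54 peaks had an FDR of 0. These peaks were singled out after their values were seen.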
